A study of Mus musculus with 30 samples.

Results

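The genes described here are 34 genes of microglia and of the complement cascade, chosen by name out of the 49315 gene identifiers of the count table: surface receptors of resting microglia, complement components, the TREM2 and Fc receptor signalling chain, phagosome and lysosome genes, transcription factors of the lineage and a few leukocyte genes. Their levels were read in 30 hippocampi from mice labelled C57BL/6J, of which 13 were TIMP2 KO (7 female, 6 male) and 17 were WT (7 female, 10 male). The knockout is constitutive, so every cell of the animal carries it, microglia included, and the WT mice were littermates according to the study's methods. No agent was given, and the labels state no age for the sequenced mice. Each library came from 1 mouse and was made from poly(A)-selected RNA of whole hippocampus, in which microglia are a minor population.

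Microglia are the resident macrophages of the brain parenchyma. In the healthy adult brain they survey their surroundings with purinergic and fractalkine receptors, depend on signalling through CSF1R, and make nearly all of the brain's C1q, the recognition molecule of the classical complement pathway. C1q bound to a surface leads to cleavage of C4 and then C3, and fragments of C3 are recognised by complement receptor 3, a route with a known part in synapse removal. TIMP2, the protein missing from the KO mice, inhibits matrix metalloproteinases and, according to the study, also has a part in activating latent MMP2.

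Totals lay between 18345517 and 41081083 counts per mouse, with medians of 28180319 in TIMP2 KO and 27786898 in WT. Timp2 itself averaged 158 ± 10.5 CPM (counts scaled to a common library size; SD, n = 13) in TIMP2 KO and 317 ± 39.8 CPM (n = 17) in WT, and no KO mouse (highest 171 CPM) reached the lowest WT mouse (256 CPM). The study reports that the TIMP2 protein band was missing from hippocampal interstitial fluid of KO mice. The source of the Timp2 counts that remained in KO mice was not tested. Each of the 34 genes was detected in every mouse, and 33 of them, all but C3, had at least 61 counts in each. Summed over the 34 genes, the level ran from 715 to 880 CPM in TIMP2 KO and from 733 to 863 CPM in WT, with medians of 799 and 798 CPM. Markers of other leukocytes were scarce. The 10 neutrophil and monocyte markers summed to at most 3.41 CPM and the 10 lymphocyte markers to at most 0.948 CPM in any mouse, and none of these 20 genes had enough counts to be tested. The 10 markers of border-associated macrophages summed to between 15.3 and 23.8 CPM, of which Stab1 gave 11.9 CPM and Mrc1 2.17 CPM on average. The 5 red blood cell markers ran from 1.14 to 51.2 CPM. Choroid plexus markers (9 genes) ran from 131 to 1136 CPM in TIMP2 KO and from 125 to 178 CPM in WT, with the highest value in a KO female, mouse 11. Their part in the values of the 34 genes was not tested. In bulk tissue fewer cells of a type and less RNA per cell cannot be told apart.

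The C1q genes lie next to each other on the minus strand of chromosome 4 (GRCm38), C1qb at chr4:136880129-136886187, C1qc at chr4:136889804-136893065 and C1qa at chr4:136895917-136898803, and 2 of them were the pair that varied most alike across mice. The sequences before the RefSeq start of these 2 genes are shown because of that pair, that of Laptm5 because it had the highest median correlation with the other genes, and that of Mpeg1 because it alone passed an unadjusted threshold between genotypes. Each run is the 250 bases before the transcription start in RefSeq (GRCm38.p6), written 5′ to 3′ on the gene's strand, with any GAGGAA or its reverse complement TTCCTC in capitals. GAGGAA is the core bound by PU.1, the product of the member gene Spi1.
C1qb, chr4:136886201-136886450, minus strand: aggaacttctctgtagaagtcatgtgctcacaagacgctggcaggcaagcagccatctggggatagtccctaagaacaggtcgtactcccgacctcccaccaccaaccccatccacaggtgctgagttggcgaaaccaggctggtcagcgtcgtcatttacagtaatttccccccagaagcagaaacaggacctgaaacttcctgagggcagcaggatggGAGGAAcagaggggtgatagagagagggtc
C1qc, chr4:136892915-136893164, minus strand: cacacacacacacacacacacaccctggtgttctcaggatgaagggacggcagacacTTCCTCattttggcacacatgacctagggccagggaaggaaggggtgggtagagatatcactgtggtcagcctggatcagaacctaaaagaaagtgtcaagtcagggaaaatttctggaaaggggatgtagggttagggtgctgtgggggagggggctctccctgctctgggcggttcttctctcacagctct
Laptm5, chr4:130913066-130913315, plus strand: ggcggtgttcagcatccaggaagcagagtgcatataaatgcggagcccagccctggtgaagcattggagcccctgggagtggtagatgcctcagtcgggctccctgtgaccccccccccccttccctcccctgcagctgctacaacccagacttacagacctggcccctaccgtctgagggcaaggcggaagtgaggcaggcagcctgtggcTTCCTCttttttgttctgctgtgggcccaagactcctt
Mpeg1, chr19:12460520-12460769, plus strand: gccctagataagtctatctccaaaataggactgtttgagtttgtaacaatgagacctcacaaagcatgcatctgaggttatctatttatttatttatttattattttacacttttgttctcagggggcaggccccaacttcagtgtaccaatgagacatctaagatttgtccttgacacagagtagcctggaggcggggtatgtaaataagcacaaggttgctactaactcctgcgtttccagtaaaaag
The match began 30 bases before the start in C1qb, 193 bases before it in C1qc and 38 bases before it in Laptm5, and these 250 bases of Mpeg1 held none. The GENCODE M21 gene starts farther upstream than RefSeq for C1qc and Laptm5, so that 151 and 191 of their 250 bases lie inside the GENCODE gene span, the match of Laptm5 included and that of C1qc not. In windows from 250 bases before to 50 bases after the start, 15 of the 25 genes with an entry in the promoter table held the 6 letters on either strand (60.0%), beside 31.3% of all 27025 genes in that table. The 9 genes without an entry were not examined. A match of 6 letters is a description of the window and not a binding site.

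Per kilobase of exon, the cathepsin gene Ctss and the C1q chain genes C1qa and C1qb were the most abundant of the 34. Ctss stood at 51.3 ± 4.77 CPM per kilobase in the 17 WT mice, C1qa at 42.7 ± 3.17 and C1qb at 34.5 ± 2.66. P2ry12, the ADP receptor of resting microglia, came next at 20.4 ± 1.56, followed by C1qc at 17.2 ± 1.18, Csf1r at 16.6 ± 0.815 and Tyrobp at 16.6 ± 1.29. The last 3 of these differed by less than their SD. At the other end, Irf8 stood at 0.740 ± 0.0827, Ptprc at 0.187 ± 0.0244 and C3 at 0.130 ± 0.0954 CPM per kilobase. The remaining 24 genes lay between these ends, as the plot of levels in each hippocampus shows. Exon lengths are unions over annotated transcripts (18313 bases for Ptprc, 7055 for Irf8), so this order depends on the annotation. By CPM alone, Csf1r (mean 96.05 in WT) stood above Ctss (69.7).

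**Figure D1:**
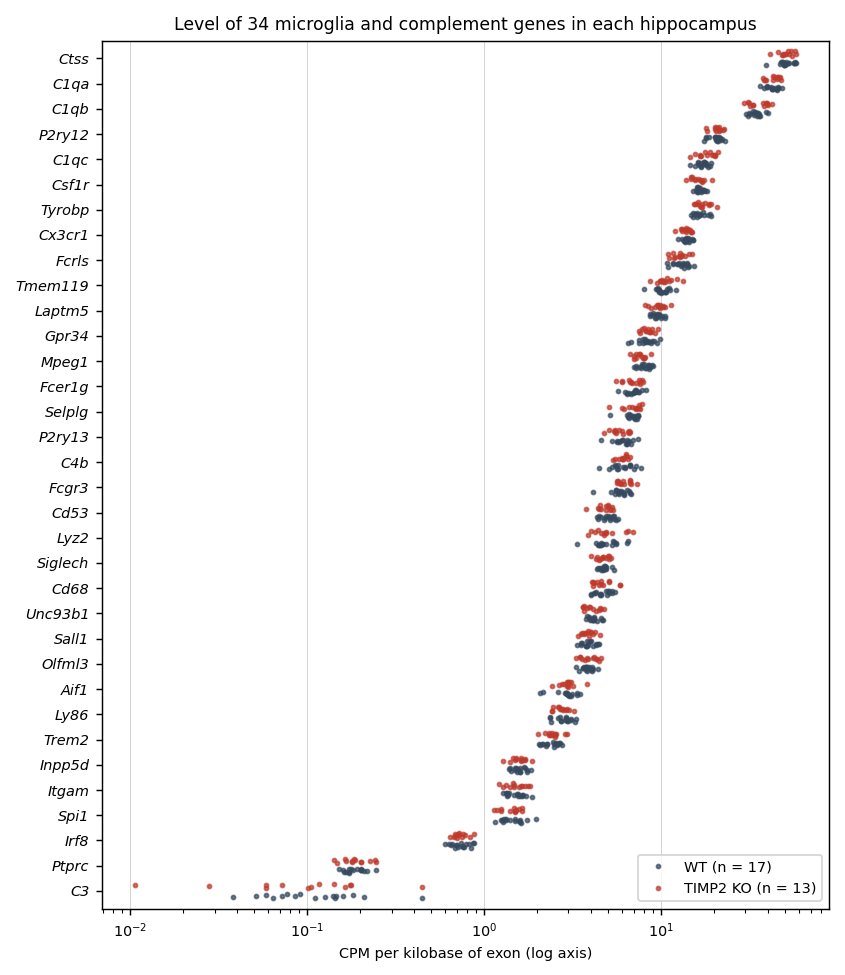
Level of each of the 34 genes in each mouse, in CPM per kilobase of exon on a log axis, with 17 WT and 13 TIMP2 KO mice as points and genes ordered by their WT mean. The points of both genotypes overlap for every gene, and C3 is the lowest and most scattered gene.

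Mice differed little in these genes. Over the 30 mice the coefficient of variation of CPM was 5.54% for Cx3cr1, 6.42% for Siglech, 6.95% for Csf1r and 7.14% for P2ry12. Counting error alone gives 2.40% for Cx3cr1 and 1.96% for Csf1r at these depths. Wider spread was seen in Lyz2 (17.2%, with 7.40% from counting), Ptprc (14.9% and 10.3%) and Spi1 (13.3% and 9.65%). C3 stood apart at 77.9%, beside 23.2% from counting.

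The first comparison asked whether loss of TIMP2 altered the level of these genes in the hippocampus. Between TIMP2 KO and WT mice, 1 of the 34 genes passed an unadjusted p under 0.05 (2.94%), beside 5.03% of the 16486 genes tested in edgeR. That gene, Mpeg1, was lower in TIMP2 KO, a direction in which 2.56% of all genes passed. At an adjusted p under 0.05 the count was 0 of 34, beside 0.0546% of all genes, and DESeq2 also gave 1 gene unadjusted and 0 adjusted. Of the 34 genes, 18 were on the higher and 16 on the lower side (14 and 20 with limma voom), with a median log2 fold change of 0.0036, beside 0.00011 over all genes tested. The median size of the log2 fold change was 0.025, beside 0.031 over all genes, and every one of the 34 stayed under 0.1. The 95% interval of the change lay within 20% of no change for 33 genes, within 15% for 32 and within 10% for 20. Leaving out C3, the outermost bounds were -11.9% and 15.2%. The ranges of the genotypes overlapped for all 34, a count given without the share over all genes tested.

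Among the 9 surface receptors, 4 were on the higher and 5 on the lower side in TIMP2 KO, and 0 passed the threshold. Cx3cr1, the receptor for the neuronal chemokine fractalkine, ran from 54.3 to 67.4 CPM in TIMP2 KO (median 62.3) and from 55.9 to 68.7 CPM in WT (median 62.5). The groups overlapped almost fully, and the log2 fold change was -0.02 (SE 0.03, adjusted p = 0.998). P2ry12 ran from 45.8 to 57.9 CPM in TIMP2 KO (median 52.7) and from 44.4 to 58.6 CPM in WT (median 52.6), a log2 fold change of 0.02 (SE 0.04). KO mice lay on both sides of the WT median, 6 below and 7 above. P2ry13, a related ADP receptor, had a median of 14.6 CPM (12.1 to 16.8) in TIMP2 KO and 16.1 CPM (11.5 to 18.7) in WT. Its log2 fold change of -0.07 (SE 0.05, p = 0.202) was the second lowest of the 34.

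Tmem119, a membrane protein that marks resident microglia, had a median of 24.1 CPM (20.0 to 31.0) in TIMP2 KO and 23.2 CPM (18.5 to 28.1) in WT. In 9 of 13 KO mice it lay above the WT median, and its log2 fold change of 0.07 (SE 0.05, p = 0.186) did not pass. Csf1r, the survival receptor for CSF1 and IL-34, ran from 80.0 to 112 CPM in TIMP2 KO (median 93.6) and from 87.8 to 105 CPM in WT (median 94.0). Both the lowest and the highest mouse were KO males, mice 10 and 18. The log2 fold change was -0.04 (SE 0.03, p = 0.256), and without mouse 18 it was -0.06 with p = 0.0457 (adjusted p = 0.880). The other receptors Gpr34, Siglech, Selplg and Fcrls had log2 fold changes between -0.03 and 0.03.

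The classical complement genes gave the same picture. C1qa, which encodes the A chain of C1q, ran from 39.2 to 49.4 CPM in TIMP2 KO (median 45.1) and from 37.7 to 50.1 CPM in WT (median 44.3). C1qb had a median of 40.9 CPM (32.1 to 46.1) in TIMP2 KO and 37.4 CPM (32.8 to 43.7) in WT, and C1qc 35.2 CPM (28.1 to 40.4) and 33.6 CPM (28.3 to 36.9). For C1qb and C1qc the highest mice were KO, and so were the lowest. Log2 fold changes were 0.01 (SE 0.04) for C1qa, 0.06 (SE 0.05) for C1qb and 0.07 (SE 0.04) for C1qc, with p = 0.755, 0.233 and 0.103. The interval for C1qc ran from -1.10% to 12.2%. C1qc passed the unadjusted threshold when the KO female mouse 5 was left out (log2 0.10, p = 0.0249, adjusted p = 0.999) or the KO male mouse 15 (log2 0.09, p = 0.0468, adjusted p = 0.855).

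C4b, the C4 component that C1q activation cleaves, ran from 30.6 to 37.9 CPM in TIMP2 KO (median 34.8) and from 25.4 to 43.9 CPM in WT (median 34.9). Its WT mice were spread more widely, with an SD of 4.83 CPM against 2.12 CPM in TIMP2 KO, and both the lowest and the highest mouse were WT. The log2 fold change was 0.01 (SE 0.06, p = 0.924). The near-identical copy C4a had 7 to 42 counts per mouse, beside 679 to 1498 for C4b, and how reads shared by the copies were counted is not stated. Itgam, the alpha chain of complement receptor 3, had a median of 7.44 CPM (6.07 to 9.12) in TIMP2 KO and 7.70 CPM (6.42 to 9.42) in WT, a log2 fold change of 0.01 (SE 0.06). Of its 5024 exonic bases 3450 are shared with the same-strand gene Gm49368, which held at most 1 count in any mouse. How reads in those shared bases were counted is not stated either.

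C3, the central complement component, was sparsely counted, with 1 to 66 counts per mouse. It ran from 0.0548 to 2.30 CPM in TIMP2 KO (median 0.539) and from 0.197 to 2.30 CPM in WT (median 0.569). The 2 highest mice were 1 of each genotype, and the lowest was a KO female. The log2 fold change was -0.04 (SE 0.32, p = 0.902), and its 95% interval from -38.3% to 53.4% spans changes of that size. Its spread over mice, given above, was wider than counting error. With sex and 8 surrogate variables as covariates it was -0.61 (p = 0.0328, adjusted p = 0.868). A further 26 complement genes, receptors and regulators were taken as a list, of which 24 could be tested. Between genotypes 0 of these passed the unadjusted threshold in edgeR, beside 5.03% of all genes tested.

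**Figure D2:**
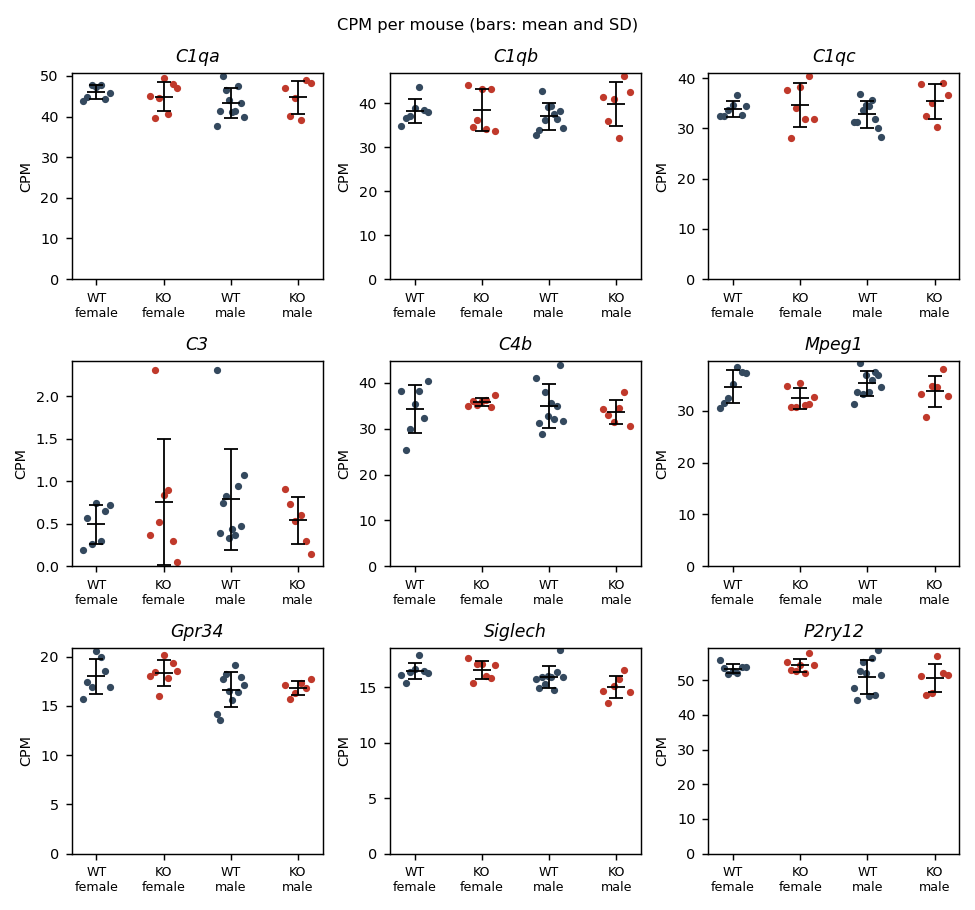
CPM of the C1q chain genes, C3, C4b, Mpeg1 and the receptor genes Gpr34, Siglech and P2ry12 in each mouse, by genotype and sex, with dots for mice and bars for the mean and SD (7 WT females, 7 KO females, 10 WT males, 6 KO males). Every panel starts at 0 CPM, and genotypes overlap in every panel.

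In the TREM2 and Fc receptor chain, 3 of 5 genes were on the higher side in TIMP2 KO and 0 passed. Trem2, the lipid-sensing receptor of microglia, had a median of 12.1 CPM (10.0 to 14.6) in TIMP2 KO and 12.2 CPM (10.2 to 13.6) in WT, a log2 fold change of 0.04 (SE 0.05). Tyrobp, its signalling adaptor, had a median of 11.4 CPM (10.3 to 13.8) in TIMP2 KO and 11.0 CPM (9.84 to 12.8) in WT. Its log2 fold change was 0.07 (SE 0.04, p = 0.136), with the ranges overlapping over most of their length. Fcgr3, an activating receptor for the constant part of IgG, had the highest log2 fold change of the 34, 0.08 (SE 0.05, p = 0.151). It ran from 9.73 to 12.7 CPM in TIMP2 KO (median 10.6) and from 7.14 to 11.7 CPM in WT (median 10.1). The related gene Fcgr2b held 47 to 160 counts per mouse beside 162 to 415 for Fcgr3, so the split of shared reads adds uncertainty there. Fcer1g, the shared gamma chain of Fc receptors, and Inpp5d, the lipid phosphatase SHIP1, differed by log2 -0.01 and -0.0051.

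The single gene past the unadjusted threshold, Mpeg1, belongs to the 7 phagosome and lysosome genes and encodes perforin-2, a pore-forming protein of macrophages. It ran from 28.9 to 38.0 CPM in TIMP2 KO (median 32.9) and from 30.6 to 39.2 CPM in WT (median 35.1). In 11 of 13 KO mice it lay below the WT median, and the ranges overlapped. Means were 33.0 ± 2.47 and 35.0 ± 2.64 CPM, and the log2 fold change was -0.08 (SE 0.04, p = 0.0366, adjusted p = 0.973 in edgeR), an interval from -10.7% to -0.385%. The sign was negative in females alone (-0.09, p = 0.0907) and in males alone (-0.07, p = 0.220), where neither passed. It passed in 18 of the 30 fits that left out 1 mouse.

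Lyz2, lysozyme of macrophages and monocytes, ran from 5.09 to 9.20 CPM in TIMP2 KO (median 6.30) and from 4.43 to 8.57 CPM in WT (median 6.22), a log2 fold change of 0.03 (SE 0.09, p = 0.714). Lyz1, its near copy, held at most 5 counts. The highest mouse for Lyz2 was the KO female mouse 11 with 382 counts, which also had the highest sum of choroid plexus markers. Its border macrophage markers summed to 19.8 CPM, inside the range of the other mice. The part of either in this Lyz2 value was not tested. Without any 1 mouse the Lyz2 log2 fold change stayed between -0.02 and 0.06. Ctss ran from 55.9 to 79.1 CPM in TIMP2 KO (median 68.7) and from 53.3 to 78.2 CPM in WT (median 68.7), a log2 fold change of -0.0062 (SE 0.05). The remaining genes of this group, Cd68, Laptm5, Unc93b1 and Ly86, lay between log2 -0.05 and 0.02.

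The 3 transcription factor genes, Spi1 for PU.1, Irf8 and Sall1, were on the lower side in TIMP2 KO with log2 fold changes from -0.02 to -0.01, and 0 passed. Sall1, which maintains microglial identity, had a median of 20.3 CPM (17.8 to 23.7) in TIMP2 KO and 20.4 CPM (17.7 to 23.4) in WT. Aif1, which encodes the widely used microglial stain IBA1, had a median of 4.55 CPM (3.70 to 5.87) in TIMP2 KO and 4.54 CPM (3.18 to 5.31) in WT, a log2 fold change of 0.02 (SE 0.06, p = 0.802). The groups overlapped over nearly their whole range. Cd53, a leukocyte tetraspanin, had the third lowest log2 fold change of the 34, -0.06 (SE 0.05, p = 0.235), with medians of 8.55 CPM (6.53 to 9.33) in TIMP2 KO and 8.85 CPM (7.57 to 9.95) in WT. Ptprc, which encodes CD45, and Olfml3 differed by log2 0.0042 and 0.04.

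**Figure D3:**
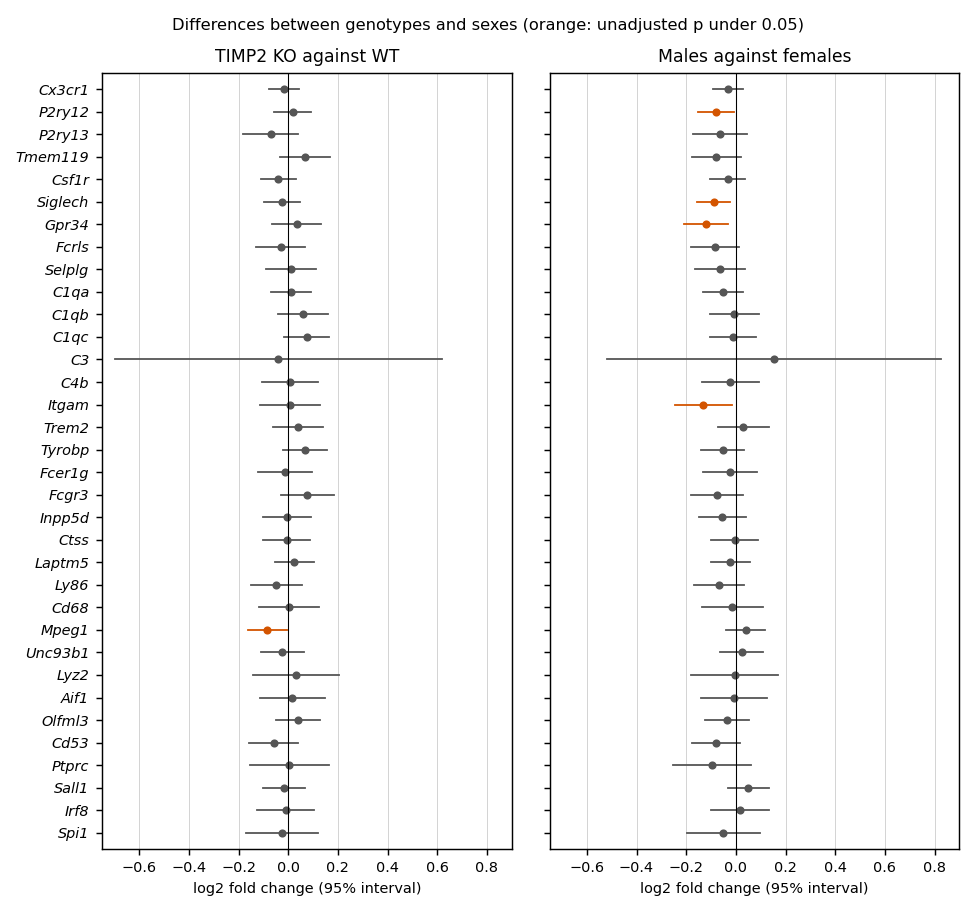
Log2 fold change with its 95% interval for each of the 34 genes, for TIMP2 KO against WT on the left and for males against females on the right, with orange for an unadjusted p under 0.05. On the left only Mpeg1 is orange; on the right Gpr34, Siglech, Itgam and P2ry12 are, all lower in males, and C3 has by far the widest interval in both panels.

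Another 30 genes known from resting microglia were taken as a list, all of which were tested. Of these, 3 passed the unadjusted threshold on the higher side in TIMP2 KO and 0 on the lower, beside 2.47% of all genes tested on the higher side, with a median log2 fold change of -0.0044. Abi3, an actin regulator, averaged 2.17 ± 0.334 CPM in TIMP2 KO and 1.85 ± 0.293 CPM in WT (log2 0.24, p = 0.00816). Syk, the kinase downstream of Tyrobp and Fcer1g, averaged 4.13 ± 0.810 and 3.59 ± 0.548 CPM (log2 0.21, p = 0.0222), and Ltc4s, leukotriene C4 synthase, 2.13 ± 0.177 and 1.92 ± 0.294 CPM (log2 0.15, p = 0.0488). Adjusted p-values were 0.882, 0.952 and 0.980. When each mouse was left out in turn, Abi3 passed in 30 of 30 fits, Syk in 29 (not without KO mouse 8) and Ltc4s in 9.

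The second comparison was between the sexes, with genotype as a covariate. Of the 34 genes, 4 passed the unadjusted threshold (11.8%), beside 9.77% of all genes tested. All 4 were lower in males, a direction in which 5.14% of all genes passed, and at an adjusted p under 0.05 the count was 0 of 34, beside 0.218% of all genes. DESeq2 likewise called 4 unadjusted, all lower, and 0 adjusted. More widely, 28 of the 34 genes were on the lower side in males (82.4%), beside 50.7% of all genes tested, with a median log2 fold change of -0.034, beside -0.0007 over all genes. The 34 genes were read from the same libraries and varied together, so these 28 are not separate observations. By role, 9 of 9 surface receptors, 5 of 6 complement genes, 4 of 5 TREM2 and Fc receptor genes, 5 of 7 phagosome genes, 1 of 3 transcription factors and 4 of 4 other genes lay on the lower side.

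Gpr34, a lysophosphatidylserine receptor encoded on the X chromosome, ran from 13.6 to 19.2 CPM in males (median 16.97) and from 15.7 to 20.6 CPM in females (median 18.2). In 14 of 16 males it lay below the female median, with a log2 fold change of -0.12 (SE 0.04, p = 0.00949). Siglech, a sialic acid receptor, ran from 13.6 to 18.3 CPM in males (median 15.8) and from 15.4 to 17.9 CPM in females (median 16.4). Again 14 of 16 males lay below the female median, with a log2 fold change of -0.09 (SE 0.03, p = 0.00959), although the highest single mouse was a WT male. Both genes passed in every one of the 30 fits that left out 1 mouse.

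Itgam ran from 6.07 to 9.12 CPM in males (median 7.20) and from 6.69 to 9.42 CPM in females (median 8.13), with 14 of 16 males below the female median. Its log2 fold change was -0.13 (SE 0.06, p = 0.0256). P2ry12 ran from 44.4 to 58.6 CPM in males (median 51.5) and from 51.7 to 57.9 CPM in females (median 53.6). Here the low values were males while the highest mouse was a male as well, and the spread differed, with an SD of 4.49 CPM in males and 1.68 CPM in females. The log2 fold change was -0.08 (SE 0.03, p = 0.0274). Adjusted p-values of the 4 genes lay between 0.350 and 0.436.

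Within genotypes the sign was the same for all 4 genes. They were picked from the fit over these same mice, so this is not a separate observation. In TIMP2 KO mice alone the log2 fold changes were -0.12 for Gpr34 (p = 0.0266), -0.14 for Siglech (p = 0.0140), -0.11 for Itgam (p = 0.265) and -0.10 for P2ry12 (p = 0.0487). In WT mice alone they were -0.12 (p = 0.0853), -0.05 (p = 0.275), -0.15 (p = 0.0396) and -0.07 (p = 0.184) in the same order. Some markers of other cells passed the same threshold. Of the 15 astrocyte markers, Aqp4, Slc1a3, Gja1, S100b and F3 passed on the lower side in males, beside 5.14% of all genes tested. The median of that list was -0.053. Of the 15 endothelial markers 1 passed on each side, and of the 15 oligodendrocyte markers 1 on the higher side. Of all genes tested, 9.77% passed on either side. Hbb-bs of the red blood cells was lower in males as well (log2 -1.06, p = 0.0413, and -0.62 at p = 0.200 without KO mouse 3). Their part in the difference between the sexes was not tested.

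Of the lists beside these, the 30 other microglia genes had 3 past the threshold lower in males, namely Nckap1l (log2 -0.13, p = 0.00308), Adgre1, which encodes F4/80 (-0.13, p = 0.0161), and Bin2 (-0.12, p = 0.0307), with 0 higher. Among the other complement genes, Cd59a, an inhibitor of the membrane attack complex, was lower in males (-0.19, p = 0.0348), and passed in 20 of the 30 fits that left out 1 mouse. Their adjusted p-values lay between 0.225 and 0.460, and 5.14% of all genes tested passed the unadjusted threshold lower in males.

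A further fit asked whether the difference between genotypes depended on sex. The interaction term passed the unadjusted threshold for 0 of the 34 genes in edgeR, beside 2.57% of all genes (423 genes), and at an adjusted p for 0 of the 34 and 0.0% of all genes. DESeq2 also gave 0 of 34 at either threshold. The smallest p was that of C3 (log2 -1.25, SE 0.65, p = 0.0616, adjusted p = 0.999). In females alone C3 was on the higher side in TIMP2 KO (log2 0.65, p = 0.165) and in males alone on the lower side (-0.60, p = 0.145), neither past the threshold. Among the others the estimate ran from -0.12 to 0.10.

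The last question was how the 34 genes varied together over the 30 mice. Over their 561 pairs the median Pearson r of log2 CPM was 0.212, beside -0.002 over all pairs of genes tested, and 64 pairs (11.4%) exceeded 0.5, beside 1.30% of all pairs. Another 106 pairs were below 0. All values of a mouse come from 1 library, so depth and cell makeup are shared by every gene of that mouse. The study adjusted its co-expression values for isolation or harvest date, which could not be done here. The part of harvest date in these correlations was not tested. With genotype and sex means removed the median r was 0.221, with the total count partialled out 0.220, in WT mice alone 0.209 and in TIMP2 KO mice alone 0.281.

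**Figure D4:**
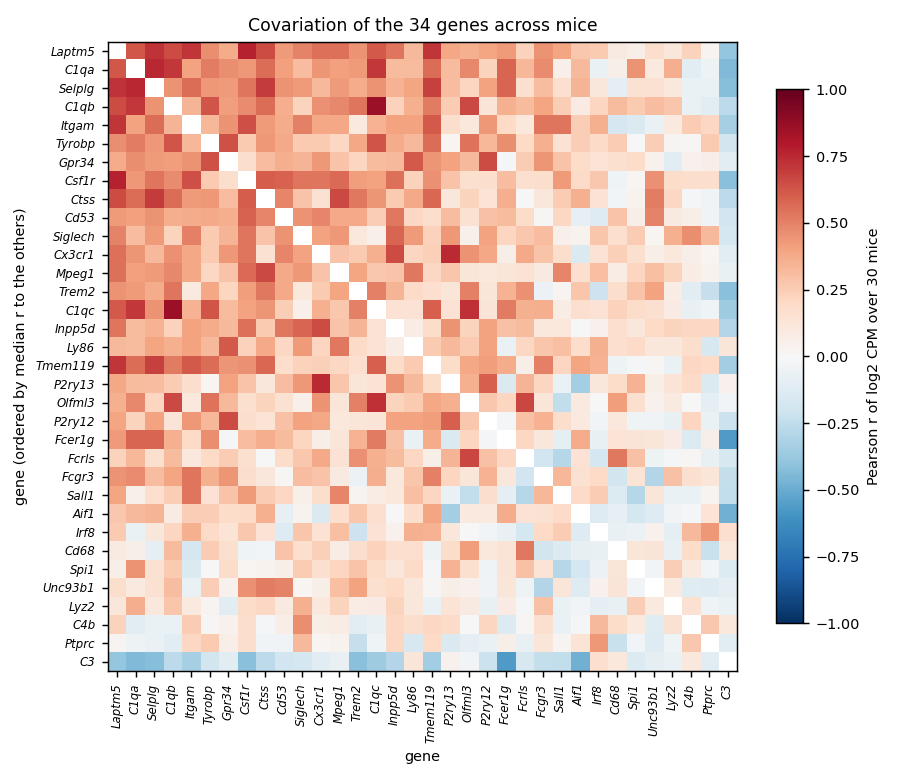
Pearson r of log2 CPM over 30 mice for each pair of the 34 genes, both axes ordered by the median r of a gene with the others, red for positive and blue for negative r. Laptm5 and C1qa stand at the top left with mostly red cells, and C3 at the bottom right has mostly blue cells.

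The C1q genes formed the tightest group. C1qb and C1qc had r = 0.857 (rho 0.870), C1qa and C1qb 0.711 (rho 0.702) and C1qa and C1qc 0.706 (rho 0.707), with permutation p = 1e-05, 3e-05 and 3e-05 for r. Adjusted over the 15 pairs tested these were 0.00015 each, and 0.00015, 0.0002 and 0.0002 for rho. The first raw value is the smallest that 100000 resamples give. The 15 pairs were chosen with earlier results of these data known. Their permutation p-values, here and below, are therefore a description and not independent tests. Leaving out the 2 mice whose level of the first gene was most extreme relative to its median, the 3 values were 0.834, 0.636 and 0.685. They had the same sign in both genotypes, with r from 0.772 to 0.904 in TIMP2 KO and from 0.579 to 0.754 in WT, and in both sexes, from 0.601 to 0.866 in females and from 0.698 to 0.851 in males. Beyond C1q, the highest pairs were Csf1r with Laptm5 (0.769), C1qa with Selplg (0.754) and Cx3cr1 with P2ry13 (0.750), which are given as a description since they were picked for their size.

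Receptor pairs varied together less evenly. P2ry12 and P2ry13, neighbours on chromosome 3, had r = 0.596 (permutation p = 0.00061, adjusted p = 0.00183) and rho = 0.466 (permutation p = 0.00969, adjusted p = 0.0208). That relation lay in the males (r = 0.730) and was near 0 in the females (r = 0.031), a difference that was not tested. Cx3cr1 and Csf1r had r = 0.534 (permutation p = 0.0022, adjusted p = 0.0055) and rho = 0.563 (permutation p = 0.00131, adjusted p = 0.00396), and Ctss and Csf1r r = 0.605 (permutation p = 0.00055, adjusted p = 0.00183) and rho = 0.570 (permutation p = 0.00132, adjusted p = 0.00396). For the first of these r was 0.694 in TIMP2 KO and 0.272 in WT. Without the 2 farthest mice the 3 pairs had r = 0.454, 0.566 and 0.553. Cx3cr1 with P2ry12 had r = 0.387 (permutation p = 0.0354, adjusted p = 0.0531) but rho = 0.160 (permutation p = 0.397, adjusted p = 0.596). Without the 2 farthest mice r fell to 0.111. For this pair r was 0.408 in TIMP2 KO and 0.404 in WT, but -0.044 in females and 0.515 in males, which was not tested.

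Tyrobp varied with Fcer1g, the adaptor of similar design, at r = 0.468 (permutation p = 0.00885, adjusted p = 0.019) and rho = 0.507 (permutation p = 0.00477, adjusted p = 0.0119), and r was 0.402 without the 2 farthest mice. Tyrobp with its receptor gene Trem2 gave r = 0.389 (permutation p = 0.0343, adjusted p = 0.0531) and rho = 0.430 (permutation p = 0.0188, adjusted p = 0.0353), and r = 0.518 without the 2 farthest mice. The transcription factor genes Spi1 and Irf8 had r = -0.055 (rho -0.083, adjusted permutation p = 0.769 and 0.707), with 0.046 without the 2 farthest mice and opposite signs in females (0.471) and males (-0.420). At 108 and 143 counts per mouse on average, these were among the sparser genes.

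C3 and C4b stood outside the C1q group. C1qa and C3 had r = -0.441 (permutation p = 0.0147, adjusted p = 0.0276), but rho = -0.320 (permutation p = 0.0866, adjusted p = 0.144) and r = -0.335 without the 2 farthest mice. The median r of C3 with the other 33 genes was -0.194, the lowest of all, followed by Ptprc (-0.030) and C4b (0.072). C1qa and C4b had r = -0.106 (rho -0.096, adjusted permutation p = 0.621 and 0.704; 0.015 without the 2 farthest). C4b with Gfap, the astrocyte filament gene, had r = 0.172 (rho 0.102, adjusted permutation p = 0.496 and 0.704; 0.082 without the 2 farthest). Lyz2 and Csf1r, each paired with the border macrophage gene Mrc1, had r = 0.105 and -0.121 (rho 0.098 and -0.048), with adjusted permutation p = 0.621 for both r and 0.704 and 0.797 for rho. Without the 2 farthest mice these were 0.097 for both.

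By their median r with the others, Laptm5 (0.425), C1qa (0.413), Selplg (0.374), C1qb (0.357) and Itgam (0.355) came highest. Markers of other cells varied with the 34 genes as well. The median r between the 34 genes and the 15 astrocyte markers was 0.204, nearly that among the 34 themselves, and with the oligodendrocyte markers it was 0.187, with the endothelial markers 0.170 and with the 6 tested border macrophage markers 0.068. Within those lists it was 0.309 for astrocyte, 0.722 for oligodendrocyte, 0.256 for endothelial and -0.012 for border macrophage markers. With the 30 other microglia genes it was 0.192 and with the 24 other complement genes 0.044.

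As a single value per mouse, the mean z-score of the 34 genes ran from -1.01 to 0.90 in TIMP2 KO (median 0.029) and from -0.79 to 0.85 in WT (median 0.023). The lowest and the highest mouse were both KO males, mice 10 and 18, whose 34 genes summed to 715 and 880 CPM. Their astrocyte markers were also low and high, at 5234 and 6581 CPM, and so were their oligodendrocyte markers, at 2793 and 4779 CPM. Without these 2 mice, 1 gene passed between genotypes, as with all 30, and the median log2 fold change was 0.0019.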

How the data were processed

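RNA of 30 hippocampi was measured by paired-end sequencing of poly(A)-selected libraries. According to the labels and methods, the authors trimmed reads with Trimmomatic 0.36, aligned them to GRCm38 with STAR 2.5.2b, counted them per gene with featureCounts of Subread 1.5.2, and deposited raw counts with no normalization. The strand setting of the counting is not given in the sources used here, so reads of Csf1r and the antisense gene Hmgxb3, which share 873 exonic bases, cannot be told apart, nor those of Cx3cr1 and Gm33858 (78 bases) and of P2ry12 and Med12l (9 bases).

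From these counts, edgeR 4.0.16 in R 4.3.3 gave TMM factors (0.976 to 1.02), the low-count filter (16486 of 49315 genes kept) and quasi-likelihood tests, with Benjamini-Hochberg adjustment over all genes tested. The fits were genotype alone over 30 mice, sex with genotype as a covariate, and their interaction. The unadjusted threshold of 0.05 is the one the study used, and tests are 2-sided. The common biological coefficient of variation was 7.52%. For the edgeR fits, standard errors were derived from each log2 fold change and its quasi-likelihood F statistic. The 95% intervals were formed from these with a t quantile. CPM values are edgeR's counts scaled by the mouse's total and TMM factor, and log2 CPM used a prior count of 2. Exon lengths are unions over GENCODE M21 transcripts. Correlations used scipy 1.17.1 with 100000 resamples. The scripts were tested on simulated data. Each column is 1 mouse, and no pair of columns was identical.

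The 34 genes, the gene lists and the 15 gene pairs were chosen with earlier results of these data known. Named in full were 13 core genes, each gene past an unadjusted p of 0.05, and the 3 highest and 3 lowest log2 fold changes between genotypes; other genes were named where they passed on a list or ranked among the 10 most like the mean z-score, and some genes that met this rule are not reported here. Alternatives were DESeq2 1.42.0, RLE factors, no filter, 10 counts in every mouse, sex, sex with 8 surrogate variables (sva 3.50.0) or total counts as covariates, each sex or genotype alone, limma 3.58.1 voom, and leaving out each mouse. Leaving out mice for the sexes and for the correlations, the correlations without C3, leaving out mice 10 and 18, and leaving out mice for genes of the other lists were added after the data were seen. Harvest dates, for which the study adjusted its co-expression analysis, were not in the labels and could not be fitted.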

Additional observations from a re-analysis of the deposited data

Results flagged for a closer look

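Each gene was examined for a mouse far from the rest of its genotype and sex group, on the log2 CPM scale, by Dixon's 95% critical value. Of 136 groups 9 were picked out, where chance gives about 1 in 20, or 6.8. WT male mouse 2 was low in 3 genes, at 4.22 for Tmem119 (next lowest 4.44), 5.74 for Ctss (6.04) and 4.47 for Selplg (4.81), and had the second lowest mean z-score of all mice, -0.79. WT male mouse 6 was low in 2, at 5.81 for Cx3cr1 (next 5.92) and 2.85 for Fcgr3 (3.19). WT male mouse 31 was high for Siglech at 4.20 (next 4.04). WT female mouse 16 was low for P2ry13 at 3.84 (next 4.02), and WT female mouse 9 for Aif1 at 1.70 (next 2.16, from 95 counts). The KO female mouse 11 was high for Lyz2 at 3.21 (next 2.70), and its choroid plexus markers summed to 1136 CPM, beside at most 371 CPM in any other mouse.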

How the results depend on the processing

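Between genotypes, the count of genes at an unadjusted p under 0.05 was 1 with DESeq2, RLE factors, no filter, 10 counts in every mouse, sex or total counts as a covariate, limma voom, and without mice 10 and 18. In these fits 4.9% to 5.9% of all genes tested passed. The count was 0 in females alone (5.02% of all genes) and 0 in males alone (3.25%). With sex and surrogate variables it was 2 (5.65% of all genes), where Mpeg1 and C3 passed. Leaving out each mouse in turn gave 0 to 2. It was 0 without KO mouse 8, 10, 25 or 27 or WT mouse 7, 21, 22, 23, 28, 29 or 31, and 2 without KO mouse 15 or 18. Between the sexes the count was 4 in the full fit, 3 in TIMP2 KO mice alone and 1 in WT mice alone. The shares over all genes tested were 9.77%, 6.08% and 5.63%. When each mouse was left out the count was 2 to 6, with the lowest count without KO mouse 10. For the fits that left out 1 mouse the share over all genes is not given. The count at an adjusted p was 0 in all of these fits. The median r was 0.281 in TIMP2 KO mice alone and 0.193 to 0.231 when each mouse was left out. The cause of these shifts was not tested, except that fits within a sex or genotype hold fewer mice. Mpeg1 between genotypes and Gpr34, Siglech, Itgam and P2ry12 between the sexes kept their direction in all of these fits. These genes had been picked from the full fits of the same mice. C3 between genotypes was at log2 0.65 in females alone, 0.02 without mice 10 and 18 and -0.61 with surrogate variables. C3 could not be tested with 10 counts in every mouse. No paired analysis was made because the labels used here give no link, such as a litter, between individual mice.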

Other observations

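Other gene lists of microglial states and their partners were compared between genotypes, where 5.03% of all genes tested passed an unadjusted p under 0.05. Of 23 genes known from disease-associated microglia 20 were tested and 0 passed an unadjusted p under 0.05 in edgeR, with a median log2 fold change of 0.0094. Of 12 genes for ligands of microglial receptors, among them Cx3cl1, Csf1, Il34 and Tgfb1, all were tested and 0 passed. Of 20 interferon response and MHC genes 19 were tested and 1 passed, Irf9, which encodes the DNA-binding subunit of the type I interferon response complex. It averaged 7.33 ± 0.853 CPM in TIMP2 KO and 6.39 ± 0.652 CPM in WT (log2 0.20, p = 0.00171, adjusted p = 0.744). Between the sexes, Gpnmb (log2 -0.19, p = 0.00948), B2m (-0.12, p = 0.0268), H2-K1 (-0.16, p = 0.0156) and H2-Ab1 (-0.73, p = 0.0203) were lower in males, with adjusted p-values from 0.350 to 0.436. Without WT mouse 28, H2-Ab1 was at -0.33 (p = 0.159).

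Among markers of other cells, 4 of the 5 tested choroid plexus genes were higher in TIMP2 KO: Ttr (log2 3.67, adjusted p = 0.0326), Clic6 (1.52, adjusted p = 0.578), Prlr (0.52, adjusted p = 0.850) and Enpp2 (0.43, adjusted p = 0.746). KO female mouse 11 carried much of this, with 636 CPM of Ttr beside a KO mean of 73.0 CPM with it and 26.1 CPM without it. Without mouse 11 the log2 fold changes were 2.14 for Ttr (p = 0.000962, adjusted p = 0.566), 0.88 for Clic6 (p = 0.0160), 0.23 for Prlr (p = 0.0263) and 0.21 for Enpp2 (p = 0.00459). The interaction with sex passed the unadjusted threshold for Ttr (log2 -3.16, p = 0.0465) and Prlr (-0.74, p = 0.0328) with mouse 11, but not without it (-0.92, p = 0.472, and -0.25, p = 0.221). Of the 15 astrocyte markers 1 passed between genotypes, Gfap, on the higher side (log2 0.09, p = 0.0115), while the median of that list was -0.020. Of the 15 oligodendrocyte markers 1 passed, Aspa, on the higher side (0.12, p = 0.0486, in 11 of the 30 fits that left out 1 mouse), with a list median of 0.081. Of the 15 endothelial markers 1 passed, Slco1a4, on the lower side (-0.10, p = 0.0174), with a list median of -0.012. Of 4 tested red blood cell markers and 6 tested border macrophage markers, 0 passed between genotypes, beside 5.03% of all genes tested. Between the sexes, Ugt8a (log2 0.15, p = 0.0199) and Flt1 (0.11, p = 0.0323) were higher and Cdh5 (-0.10, p = 0.00671) lower in males. The 5 astrocyte markers lower in males had log2 fold changes from -0.11 for Aqp4 to -0.06 for Slc1a3.

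Among the tested genes outside the 34 whose log2 CPM was most like their mean z-score over the 30 mice were Pld4 (r = 0.796), Aldh1a1 (0.788), Panx2 (0.772), Fads1 (0.747), Acsbg1 (0.733), Mxd4 (0.732), Dtna (0.728) and Gm13111 (0.726). These were picked for their high r among all genes tested and are given as a description. None of these 8 genes differed between genotypes at an unadjusted p under 0.05 in edgeR, with log2 fold changes from -0.03 to 0.06.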
